A study of Homo sapiens with 6 samples.

Results

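The kinesin motor family comprised 39 genes here, the protein-coding rows of the count table whose symbol was KIF or KIFC followed by a member number, out of 30327 rows in all. A further row with such a symbol, KIF28P, was annotated as a pseudogene and did not enter. By their known work the members were placed in 3 classes, with 13 mitotic kinesins, 15 transport kinesins and 11 others. The filter on low counts left 34 of the 39 members for testing, which were 12 mitotic, 13 transport and 9 other kinesins. The members left out were KIF4B with 0 to 1 reads per library, KIF17 with 2 to 7, KIF1A with 0 to 2, KIF7 with 5 to 11 and KIF25 with 0 to 2. KIF2B, KIF19 and KIF26B were not analysed here.

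Kinesins are motor proteins that hydrolyse ATP to move along microtubules or to take microtubule ends apart. Mitotic kinesins build the spindle, align chromosomes and act in cytokinesis, and most are made in the later part of the cell cycle. Transport kinesins carry vesicles, mitochondria, endosomes and other cargo through the cytoplasm, often by way of light chains or adaptor proteins. GRB2 is an adaptor protein that links receptor tyrosine kinases such as HER2 to RAS signalling.

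Poly(A) RNA was sequenced from SK-BR-3, an established human breast cancer line that overexpresses HER2. A nontargeting control siRNA was used for the 3 si_NC libraries and an siRNA against GRB2 for the 3 si_GRB2 libraries, with no other treatment named. The dose, the time after transfection and the sequence of the siRNA are given in the study's methods and not in the labels of these libraries. The descriptions call the treated libraries si_GRB2, whereas their titles and genotype labels name GRB2 overexpression. The study's methods also list a GRB2 overexpression group of 3 samples for RNA sequencing, beside their account of the siRNA. The samples come from 1 cell line, nothing says whether the libraries came from separate cultures, and p-values therefore measure the spread between these libraries, which may be technical.

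Reads counted on genes ranged from 24810378 to 28532480 per library. Values are given as CPM, the reads on a gene for a fixed total of reads after TMM scaling, which compare libraries for the same gene, or as FPKM, which also divides by gene length and is used for levels between genes. GRB2 had 123.9, 129.5 and 125.7 CPM in si_NC and 27.8, 28.1 and 29.6 CPM in si_GRB2. The GRB2 RNA was therefore lower in each library labelled si_GRB2, the direction named by the descriptions and not by the titles (log2 fold change −2.15 with a standard error of 0.040, and an adjusted p of 3.87e-15 in the edgeR quasi-likelihood fit). An exact two-sided permutation test gave p = 0.1 for GRB2, the smallest that 3 against 3 libraries allow. Among the markers of this line, ERBB2, which encodes HER2, averaged 3499 CPM in si_NC (SD 74.9) and 4140 CPM in si_GRB2 (SD 132) over 3 libraries each. ERBB2 was called higher in the edgeR fit (log2 fold change 0.24, adjusted p = 1.14e-06). KRT8, KRT18, KRT19 and EPCAM, epithelial markers of the line, were present in each library and called lower, with log2 fold changes of −0.41, −0.55, −0.20 and −0.55 (adjusted p from 3.72e-11 to 4.1e-06). The summed level of the 8 listed markers fell by 15.3%. Those 8 included ESR1 and PGR, which were expected to be low, and the sum came mostly from KRT8, KRT18, KRT19 and ERBB2. CDH1, which was listed as a marker expected to be present, had 1 to 3 reads per library. Summed over 10 markers of blood, endothelial, stromal and neuronal cells, the level was 2.12 to 2.85 CPM in si_NC and 1.43 to 2.17 CPM in si_GRB2, and neither of the 2 that could be tested was called.

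Most kinesin reads came from the mitotic and transport classes, and their balance differed between the groups. The summed level of the 13 mitotic kinesins was 652.2, 663.8 and 656.9 CPM in si_NC and 571.7, 578.7 and 580.0 CPM in si_GRB2. The sum fell by 12.3%, and its values did not overlap. The summed level of the 15 transport kinesins was 514.3, 520.5 and 542.7 CPM in si_NC and 554.9, 572.3 and 556.1 CPM in si_GRB2, which is 6.71% higher with no overlap. The ratio of the mitotic to the transport sum averaged 1.251 over the 3 si_NC libraries (SD 0.036) and 1.028 over the 3 si_GRB2 libraries (SD 0.016). The 11 other kinesins summed to 107.2 to 108.5 CPM in si_NC and 112.4 to 117.5 CPM in si_GRB2. Scaled by library size alone, the mitotic sum fell by 9.18% and the transport sum was 10.5% higher. These sums describe the classes and carry no test. In bulk RNA, fewer cells in a given phase of the cycle and less RNA per cell cannot be told apart.

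**Figure D1:**
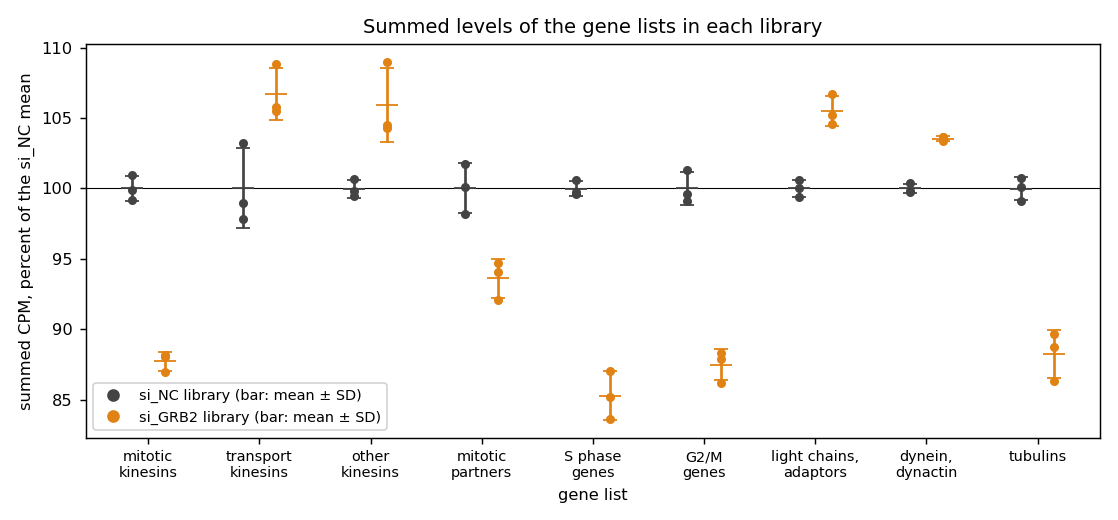
The vertical axis is the summed CPM of each gene list as a percent of its si_NC mean, the horizontal axis names 9 lists, points are libraries and bars are the mean ± SD of 3 libraries. The mitotic kinesins of si_GRB2 lie 12.3% below si_NC on average and the transport kinesins 6.71% above, and the S-phase, G2 and M and tubulin lists lie below.

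A gene was called when edgeR's adjusted p was under 0.05 over all 15801 genes tested. By that limit 19 of 34 kinesins were called, or 55.9%, against 30.6% of all genes tested. Called higher in si_GRB2 were 7 kinesins (20.6%, against 15.2% of all genes) and called lower were 12 (35.3%, against 15.5% of all genes). The median log2 fold change over all genes tested was 0.0019. In the mitotic class 8 of 12 were lower and 0 were higher, with a median log2 fold change of −0.17. The 0 rests on placing KIF2A, which was called higher, among the other kinesins. With KIF2A counted as mitotic the median was −0.16. In the transport class 4 of 13 were lower and 4 were higher, with a median of 0.049, which turned to −0.0027 with no filter on low counts. Of the 9 other kinesins tested, 3 were higher and 0 lower, with a median of −0.021. Most changes were small. With the limits of the study's methods, a fold change of at least 1.5 and p under 0.01 taken as adjusted p, 2 kinesins were left, KIF15 and KIF5C, both lower, or 1 each of the mitotic and transport classes. Of all genes tested, 1.69% were lower by these limits.

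**Figure D2:**
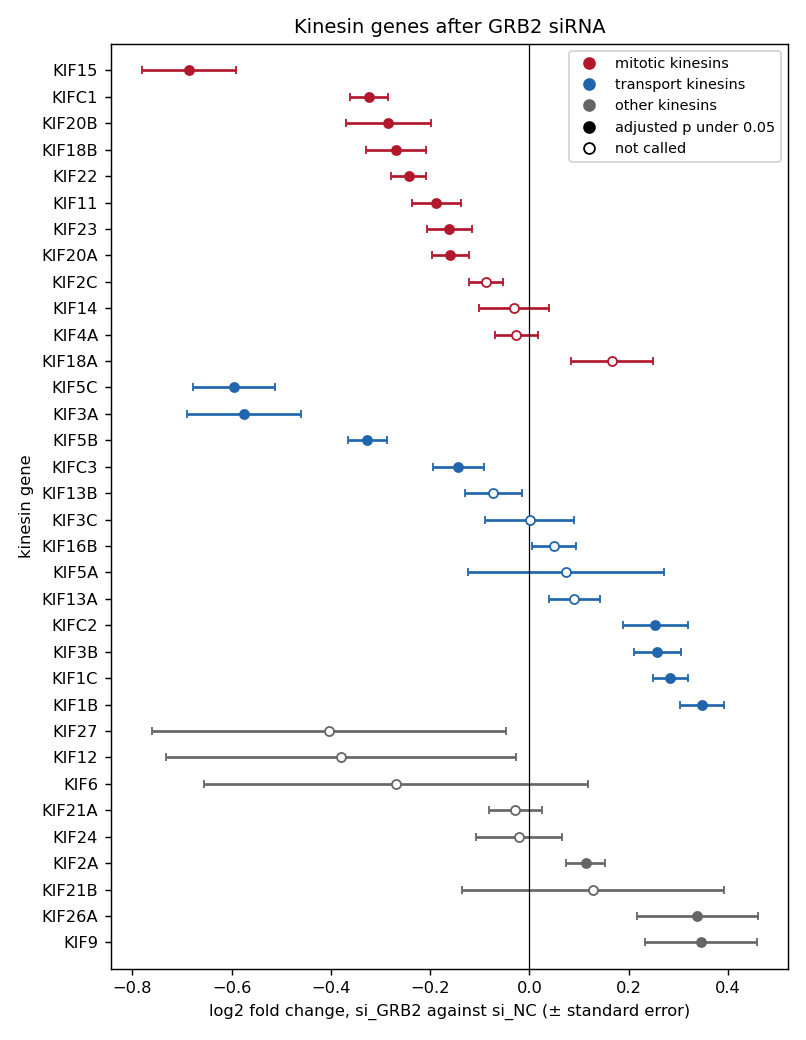
The horizontal axis is the log2 fold change of si_GRB2 against si_NC with its standard error, for the 34 kinesin genes tested, grouped by class and marked filled where the adjusted p was under 0.05. The 8 called mitotic genes all lie left of 0, the called transport genes lie 4 on each side, and the 3 called others lie right of 0.

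KIF15, a plus-end-directed spindle motor that helps keep the spindle bipolar, had the lowest fitted value of the family. It lies on the plus strand of chromosome 3 of GRCh38, from 44761721 to 44873376. Its levels were 13.7, 14.1 and 12.7 CPM in si_NC and 9.66, 8.16 and 7.39 CPM in si_GRB2. No library of either group reached the other group's range, and the fitted level was 37.8% lower (log2 fold change −0.69, standard error 0.095, adjusted p = 4.45e-05). KIF11, the kinesin-5 motor that pushes spindle poles apart and the main partner of KIF15 in that work, had 48.4, 44.5 and 46.5 CPM in si_NC and 40.5, 38.7 and 43.4 CPM in si_GRB2. KIF11 thus fell by a smaller amount, with its highest si_GRB2 library close to the lowest si_NC library (log2 fold change −0.19, standard error 0.049, adjusted p = 0.00797). Without si_GRB2 replicate 2 KIF11 was not called (adjusted p = 0.0599).

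KIFC1, a minus-end-directed kinesin-14 that gathers spindle poles and clusters extra centrosomes, lies on the plus strand of chromosome 6 from 33391823 to 33409896. It had 88.6, 85.0 and 90.8 CPM in si_NC and 68.5, 71.6 and 71.3 CPM in si_GRB2. The groups were far apart relative to their spread, and the fitted level was 20.1% lower (log2 fold change −0.32, standard error 0.038, adjusted p = 7.75e-06). KIF22, a chromokinesin that binds chromosome arms and pushes them from the poles, had 144.3, 152.4 and 156.4 CPM in si_NC and 130.4, 124.2 and 128.2 CPM in si_GRB2. Its 15.5% lower level had an adjusted p of 6.41e-05. KIF18B, a kinesin-8 that controls astral microtubule length, had 30.3, 31.9 and 35.8 CPM in si_NC and 26.9, 26.2 and 28.3 CPM in si_GRB2. It was 17.0% lower, without overlap (adjusted p = 0.00276).

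The kinesin-6 motors, which act at the central spindle and in cytokinesis, were all called lower. KIF20A had 65.4, 67.2 and 64.4 CPM in si_NC and 59.0, 59.1 and 58.3 CPM in si_GRB2 (log2 fold change −0.16, standard error 0.037, adjusted p = 0.00364). Its 10.4% difference exceeded a narrow spread within both groups. KIF23, the motor of the centralspindlin complex, had 68.9, 73.0 and 67.1 CPM in si_NC and 58.7, 65.3 and 62.7 CPM in si_GRB2 (log2 fold change −0.16, standard error 0.045, adjusted p = 0.0125). KIF20B had 20.7, 20.8 and 16.2 CPM in si_NC and 15.7, 15 and 16.7 CPM in si_GRB2 (log2 fold change −0.28, adjusted p = 0.019). The groups overlapped for KIF20B alone among the 19 called kinesins, because si_NC replicate 3 lay within the si_GRB2 range. Leaving out any 1 of 4 libraries (si_NC replicate 1 or 2, si_GRB2 replicate 1 or 2) ended the call of KIF20B, and leaving out si_GRB2 replicate 1 or si_NC replicate 2 ended that of KIF23, as did scaling by library size alone (adjusted p = 0.0734).

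The mitotic kinesins that were not called included abundant ones. KIF2C, a kinesin-13 that depolymerises microtubules at centromeres and is known as MCAK, had 98.3, 99.7 and 94.8 CPM in si_NC and 90.0, 94.1 and 91.4 CPM in si_GRB2. Its groups did not overlap, yet the difference of −0.088 on the log2 scale missed the limit (standard error 0.035, adjusted p = 0.0714). It passed without si_NC replicate 3 (adjusted p = 0.0297) and with a filter of at least 10 counts in every library (adjusted p = 0.0463). KIF4A, a chromokinesin that also works in the central spindle, had 48.4, 51.3 and 49.2 CPM in si_NC and 46.9, 50.7 and 48.4 CPM in si_GRB2, which overlapped. KIF14, a cytokinesis motor, had a log2 fold change of −0.031 (adjusted p = 0.797). KIF18A, which limits the movements of chromosomes at the metaphase plate, was the 1 mitotic kinesin fitted above 0, at 0.17 (standard error 0.083, adjusted p = 0.149).

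**Figure D3:**
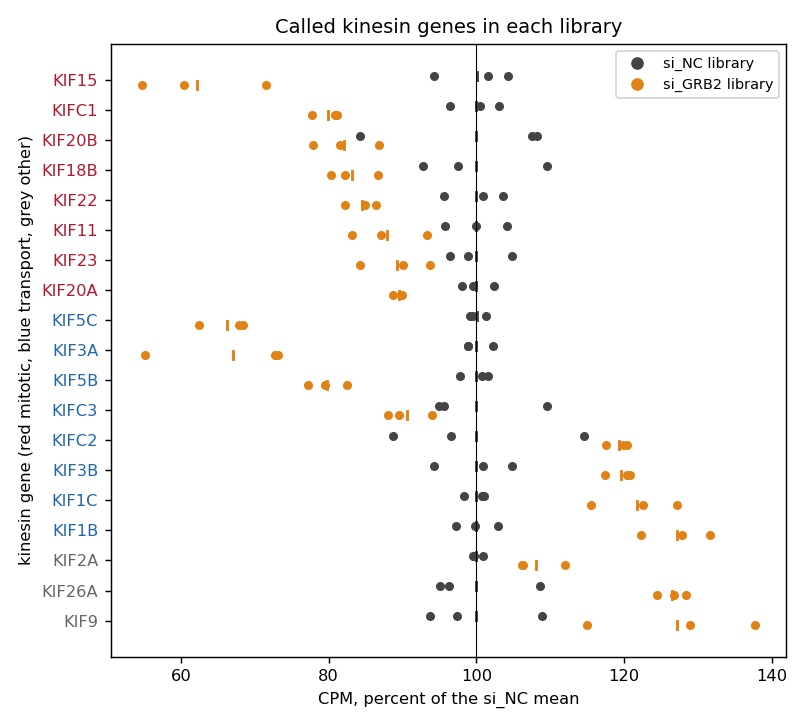
The horizontal axis is the CPM of each library as a percent of the gene's si_NC mean for the 19 called kinesins, with a dot for each library, a short bar for each group mean and gene names coloured by class. The groups are apart for 18 genes, and for KIF20B 1 si_NC library lies among the si_GRB2 libraries.

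Many genes transcribed late in the cell cycle carry in their promoters a CHR element, TTTGAA, which is bound by the DREAM and MuvB complexes, and CCAAT boxes, which are bound by NF-Y. Both motifs were searched on both strands in RefSeq windows from 250 bases before to 50 bases after each gene's start (GRCh38.p14), which were found for 33 of the 39 members. KIF5A, KIF13B, KIFC2, KIFC3, KIF21B and KIF27 had none. Neither motif contains the other, and both were chosen with the class results known. TTTGAA was in a window of 10 of 13 mitotic kinesins (76.9%), 1 of 11 transport kinesins (9.09%) and 0 of 9 others, and in 18.2% of the 27305 genes with a window. CCAAT was in 11 of 13 mitotic kinesins, 4 of 11 transport kinesins and 3 of 9 others, and in 39.7% of all genes with a window. The shares were alike in the mitotic partners (76.9% with TTTGAA and 84.6% with CCAAT) and in the G2 and M genes (72.2% and 83.3%), whereas the S-phase genes held TTTGAA in 5.88% and CCAAT in 76.5%. Counted per window, 15.2% of the 35116 windows held TTTGAA and 34.6% held CCAAT.

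The 11 TTTGAA matches of the mitotic kinesins had their first base from 55 bases before to 30 bases after the start. Within the mitotic class the motif did not follow the call. TTTGAA was held by 6 of 8 that were lower and by 3 of the 4 that were not called. Of the called mitotic genes without it, KIF20A and KIF22, both held CCAAT. KIF5B was the transport kinesin with a TTTGAA, 140 bases before its start, outside the span seen in the mitotic class. A match in these letters is a description and not a site shown to be bound.

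The windows of 4 called kinesins show these cases, a mitotic gene with TTTGAA alone (KIF15), a mitotic gene with both motifs (KIFC1), the transport gene with both (KIF5B) and a transport gene with neither (KIF1C). They are printed from 5′ to 3′ on the strand of the gene, and capitals mark TTTGAA or CCAAT on that strand or their complements TTCAAA and ATTGG. The windows are chr3:44761544-44761843 (plus strand), chr6:33391573-33391872 (plus), chr10:32056376-32056675 (minus) and chr17:4997700-4997999 (plus).
KIF15: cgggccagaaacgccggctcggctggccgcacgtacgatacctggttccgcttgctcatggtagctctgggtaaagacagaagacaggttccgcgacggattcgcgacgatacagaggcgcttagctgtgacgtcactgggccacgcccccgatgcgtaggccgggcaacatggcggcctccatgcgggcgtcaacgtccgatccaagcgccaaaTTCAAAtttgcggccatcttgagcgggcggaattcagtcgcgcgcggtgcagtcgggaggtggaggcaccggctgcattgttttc
KIFC1: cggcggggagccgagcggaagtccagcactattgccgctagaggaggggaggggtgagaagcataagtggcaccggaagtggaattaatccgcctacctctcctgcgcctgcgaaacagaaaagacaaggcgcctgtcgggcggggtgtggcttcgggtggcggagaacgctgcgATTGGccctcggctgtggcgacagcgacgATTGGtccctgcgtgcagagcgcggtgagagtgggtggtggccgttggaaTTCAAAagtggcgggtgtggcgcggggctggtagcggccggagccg
KIF5B: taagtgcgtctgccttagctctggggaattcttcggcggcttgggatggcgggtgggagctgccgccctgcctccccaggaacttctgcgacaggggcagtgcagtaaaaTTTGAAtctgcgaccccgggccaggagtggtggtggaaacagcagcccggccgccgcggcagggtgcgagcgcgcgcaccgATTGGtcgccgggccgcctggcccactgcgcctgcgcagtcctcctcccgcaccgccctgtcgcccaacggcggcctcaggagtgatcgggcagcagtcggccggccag
KIF1C: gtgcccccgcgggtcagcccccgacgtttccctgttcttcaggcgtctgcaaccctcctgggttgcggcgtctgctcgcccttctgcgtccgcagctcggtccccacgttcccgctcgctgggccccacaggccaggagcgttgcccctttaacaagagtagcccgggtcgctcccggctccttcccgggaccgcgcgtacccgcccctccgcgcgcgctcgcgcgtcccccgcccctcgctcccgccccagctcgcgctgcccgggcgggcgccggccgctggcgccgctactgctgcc

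**Figure D4:**
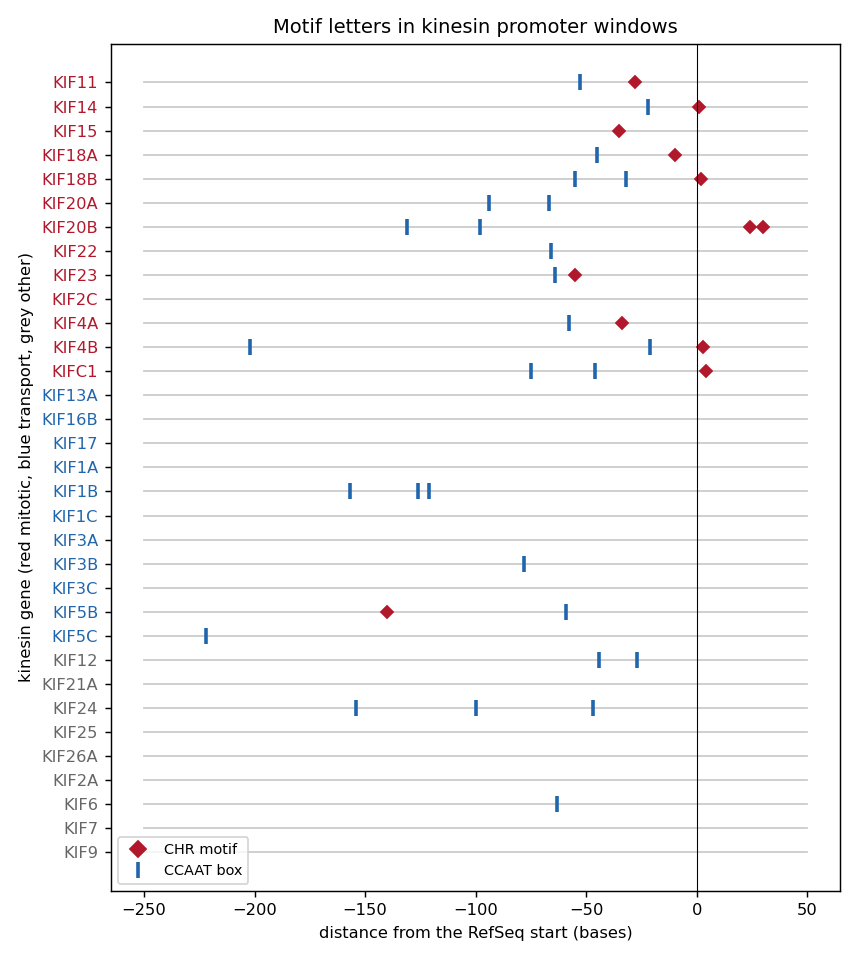
Each line is the promoter window of a kinesin gene, from 250 bases before to 50 bases after the RefSeq start on the horizontal axis (several windows of a gene are drawn on 1 line), with diamonds for TTTGAA (the CHR motif) and bars for CCAAT on either strand. Diamonds mark 10 of the 13 mitotic genes near the start, and 1 transport gene, KIF5B, further upstream.

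Among transport kinesins the called genes split between both directions. KIF5B, the widely expressed heavy chain of kinesin-1, the motor for many vesicles and for mitochondria, had 70.8, 70.3 and 68.2 CPM in si_NC and 53.8, 55.5 and 57.6 CPM in si_GRB2. All si_GRB2 libraries lay well below all si_NC libraries, and the fitted level was 20.3% lower (log2 fold change −0.33, standard error 0.039, adjusted p = 1.02e-05). KIF5C, a kinesin-1 heavy chain best known in neurons, had 11.98, 11.93 and 12.19 CPM in si_NC and 8.23, 8.16 and 7.51 CPM in si_GRB2. It was 33.8% lower (log2 fold change −0.60, standard error 0.082, adjusted p = 4.24e-05). The remaining kinesin-1 heavy chain, KIF5A, had 1.81 ± 0.217 CPM (SD, n = 3) and 1.90 ± 0.351 CPM (SD, n = 3), and was not called (adjusted p = 0.828). Its exons overlap those of DCTN2 on the opposite strand, a gene with far more reads, and whether the counting used strand is not given in the sources used here.

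The light chains, which bind cargo to kinesin-1, did not pass the test. KLC1, KLC2, KLC3 and KLC4 had log2 fold changes of −0.014, 0.10, 0.016 and 0.070, with adjusted p from 0.219 to 0.924.

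The subunits of heterotrimeric kinesin-2, which serves transport in cilia and in the cytoplasm, did not move together. KIF3A had 8.27, 8.55 and 8.27 CPM in si_NC and 4.61, 6.08 and 6.12 CPM in si_GRB2, which was 32.9% lower (standard error 0.115 on the log2 scale, adjusted p = 0.00113). KIF3B had 31.6, 33.8 and 35.1 CPM in si_NC and 40.3, 39.3 and 40.5 CPM in si_GRB2, which was 19.6% higher (log2 fold change 0.26, standard error 0.048, adjusted p = 0.000593). The CPM of KIF3A divided by that of KIF3B averaged 0.250 in the si_NC libraries (SD 0.014, n = 3) against 0.140 in those of si_GRB2 (SD 0.022, n = 3). That the ratios did not overlap follows from the opposite changes of KIF3A and KIF3B. KIF3C, which can take the place of KIF3B, had a log2 fold change of 0.0005 (adjusted p = 0.998). KIFAP3, the non-motor subunit, had a difference of 0.13 on the log2 scale (adjusted p = 0.0989).

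The kinesin-3 motors KIF1B and KIF1C were both higher. KIF1C, which carries dense-core vesicles and integrins, had 158.0, 162.3 and 161.9 CPM in si_NC and 196.9, 204.3 and 185.7 CPM in si_GRB2. It rose by 21.8% with no overlap (log2 fold change 0.28, standard error 0.034, adjusted p = 1.1e-05). KIF1B, a motor of mitochondria and synaptic vesicle precursors, had 36.8, 35.7 and 34.8 CPM in si_NC and 43.7, 45.7 and 47.0 CPM in si_GRB2, which was 27.2% higher (log2 fold change 0.35, standard error 0.045, adjusted p = 1.98e-05). Relative to KIF5B, the CPM of KIF1C averaged 2.30 in the si_NC libraries (SD 0.072, n = 3) against 3.52 in those of si_GRB2 (SD 0.257, n = 3). This ratio restates the opposite calls of KIF1C and KIF5B and adds no separate result. The other kinesin-3 members of the transport class that could be tested, KIF13A, KIF13B and KIF16B, which act in endosome and membrane traffic, were not called and lay between −0.073 and 0.091 on the log2 scale. KIFBP, which binds and inhibits several kinesins, had a log2 fold change of 0.025 (adjusted p = 0.685).

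The minus-end-directed transport members of kinesin-14 differed in direction. KIFC2 had 43.2, 47.0 and 55.8 CPM in si_NC and 57.2, 58.3 and 58.6 CPM in si_GRB2. The si_NC libraries were widely spread and the groups stood close together at their edges (log2 fold change 0.25, standard error 0.066, adjusted p = 0.00785). KIFC3, which also works at cell junctions, had 63.0, 63.5 and 72.7 CPM in si_NC and 58.5, 62.5 and 59.4 CPM in si_GRB2 (log2 fold change −0.14, standard error 0.052, adjusted p = 0.0461). In both genes si_NC replicate 3 was the highest of its group. KIFC2 lost its call without si_NC replicate 2 (adjusted p = 0.0556), and KIFC3 lost it without si_NC replicate 3 and without any 1 of the si_GRB2 libraries. With all libraries KIFC3 was also not called by DESeq2 (adjusted p = 0.0632) or with scaling by library size alone (adjusted p = 0.201).

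**Figure D5:**
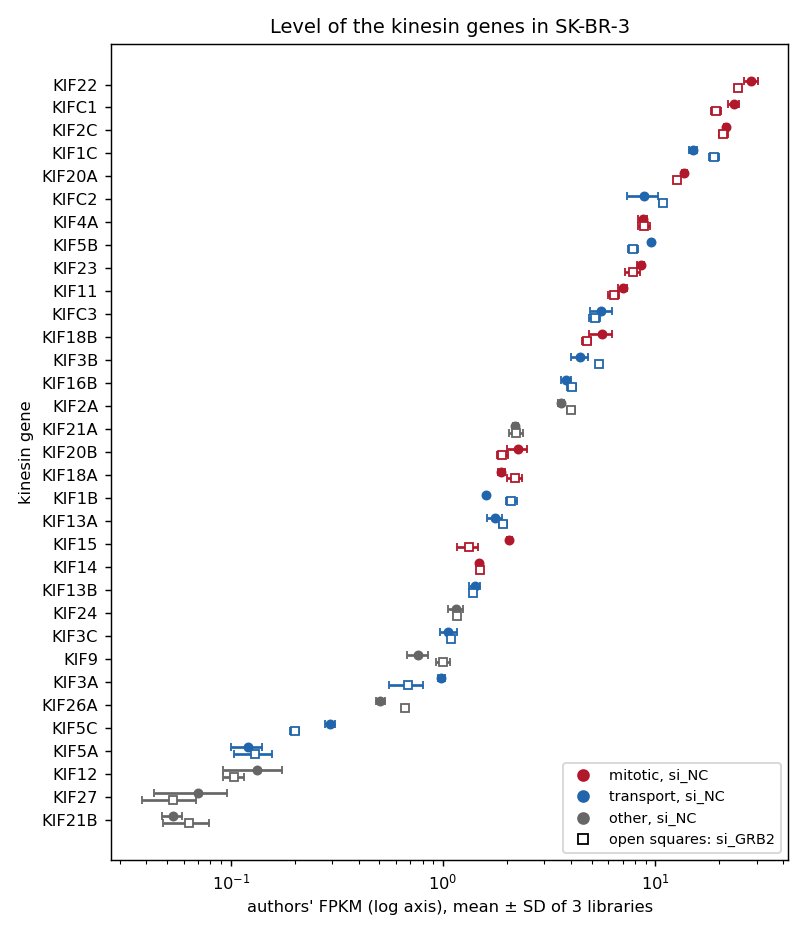
The horizontal axis is the FPKM of the authors on a log scale, as mean ± SD of 3 libraries, for the 33 kinesin genes with a mean of at least 0.05 FPKM, with filled circles for si_NC, open squares for si_GRB2 and colours for class. KIF22, KIFC1 and KIF2C are at the top, and KIF1C at 15.1 FPKM in si_NC and 18.9 FPKM in si_GRB2 is the highest transport kinesin.

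Of the other kinesins, KIF2A, a microtubule depolymerase, KIF9, a motor of motile cilia and flagella, and KIF26A, an atypical kinesin, were called higher. KIF2A had 58.1, 58.9 and 58.2 CPM in si_NC and 61.9, 62.0 and 65.3 CPM in si_GRB2, a rise of 8.14% (adjusted p = 0.0347). KIF9 had 5.42, 5.22 and 6.06 CPM in si_NC and 7.67, 7.17 and 6.40 CPM in si_GRB2 (adjusted p = 0.029). KIF26A had 4.71, 4.12 and 4.17 CPM in si_NC and 5.56, 5.39 and 5.49 CPM in si_GRB2 (adjusted p = 0.0459). These calls were among the least stable of the family. KIF2A and KIF26A were called in 1 of 6 fits that left out a library, KIF9 in 2 of 6, and DESeq2 called none of the 3 (adjusted p of 0.0879, 0.135 and 0.0835 for KIF2A, KIF26A and KIF9). KIF6, KIF12, KIF21B and KIF27 averaged below 1 CPM in both groups and were not called, with log2 fold changes of −0.27, −0.38, 0.13 and −0.40 and wide standard errors from 0.263 to 0.386.

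Several members share exon bases with a gene on the opposite strand, and no value here shows whether reads of those genes entered the kinesin counts. KIF9 shares 178 exon bases with KLHL18, whose reads came to 309% of those of KIF9. The overlap of KIF2A with DIMT1 is longer, at 2446 bases, with reads at 54.8%. KIF20A shares 132 bases with BRD8 and 74 with CDC23, at 54.0% and 69.6%, and KIF4A 77 with PDZD11, at 97.9%. KIF24, which was not called, shares 144 bases with UBAP1, at 643%. For KIFC2 the partner is FOXH1, with 791 bases shared, at 11.7%. These percentages compare whole-gene read totals, and the part of the overlaps in the differences was not tested.

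By FPKM, the levels of the family spanned several orders of magnitude. KIF22 was at 28.2 ± 2.12 FPKM (SD, n = 3) in si_NC and 24.5 ± 0.325 in si_GRB2. KIFC1 was at 23.4 ± 1.46 and 19.3 ± 0.987, KIF2C at 21.5 ± 0.419 and 20.9 ± 1.03, and KIF1C at 15.1 ± 0.710 and 18.9 ± 1.10 FPKM. In si_NC the ranges of these 4 genes did not overlap, but the place of KIF22 rests on the gene length used. The length implied by CPM and FPKM was 5292 bases for KIF22, below its 7169 bases of merged exons. It lay above the merged exons for KIFC1 (3720 against 3030), KIF2C (4473 against 3646) and KIF1C (10500 against 8578). In si_GRB2 KIF22 stayed apart, while KIF2C overlapped KIFC1 and KIFC1 overlapped KIF1C, so their order there is not set. KIF20A came next in both groups, at 13.7 ± 0.406 and 12.6 ± 0.345 FPKM. Below it in si_NC, KIF5B overlapped KIFC2, KIFC2 overlapped KIF4A and KIF4A overlapped KIF23. In si_GRB2 KIFC2 at 10.8 ± 0.429 FPKM stood apart from KIF4A at 8.82 ± 0.576, and KIF5B at 7.86 ± 0.443 overlapped KIF23 at 7.84 ± 0.631. The most abundant of the other kinesins were KIF2A at 3.59 ± 0.125 and 4.01 ± 0.190, KIF21A at 2.18 ± 0.061 and 2.21 ± 0.170, and KIF24 at 1.15 ± 0.090 and 1.16 ± 0.026 FPKM. KIF21A, which acts at the cell cortex, and KIF24, a depolymerase at centrioles, were not called (log2 fold changes −0.029 and −0.021, adjusted p = 0.74 and 0.893). For KIF5C the deposited FPKM of 0.293 in si_NC goes with 33151 bases of merged exons, so that FPKM understates a shorter transcript's level.

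The proteins that kinesins work with, and the cell cycle genes, were read from lists as a setting for the family. These lists were chosen with earlier results of these data known. Of 16 tested mitotic partners 7 were lower (43.8%, against 15.5% of all genes) and 0 higher (against 15.2%), with a median log2 fold change of −0.092. They included CDCA8, the Borealin subunit of the chromosomal passenger complex, which had 54.8, 55.5 and 53.8 CPM in si_NC and 38.3, 38.3 and 41.0 CPM in si_GRB2 (log2 fold change −0.48, adjusted p = 3.3e-07). PLK1, the mitotic kinase that also phosphorylates kinesins, was 18.1% lower and PRC1, the microtubule bundler that holds KIF4A at the central spindle, 13.1% lower (adjusted p = 9.76e-06 and 0.000746). CENPE, the kinesin-7 motor of kinetochores whose symbol lies outside the naming rule, had a log2 fold change of 0.083 (adjusted p = 0.267).

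Of 20 S-phase genes 19 were lower and 0 higher (median −0.23), and of 20 G2 and M genes 13 were lower and 0 higher (median −0.13), which is 95.0% and 65.0% lower against 15.5% of all genes. RRM2, PCNA and CDC6 fell by 19.5%, 19.5% and 16.7%, and UBE2C, CDK1 and TOP2A by 19.1%, 17.2% and 15.6% (adjusted p from 3.39e-07 to 6.84e-06). The summed levels fell by 14.7% for the S-phase list and by 12.5% for the G2 and M list, beside 12.3% for the mitotic kinesins. The part of this shift in the mitotic kinesin values was not tested.

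Adaptors and regulators of transport kinesins held 7 higher and 2 lower genes of 22 tested (median 0.070), or 31.8% higher and 9.09% lower against 15.2% and 15.5% of all genes. TRAK1 and TRAK2, which join kinesin-1 to mitochondria, were higher by 23.1% and 19.9% (adjusted p = 0.00178 and 0.00234). SPAG9, also called JIP4, was higher by 19.0% and CLSTN1, a cargo adaptor of kinesin light chains, by 15.96% (adjusted p = 4.37e-05 and 0.000151). Of the 2 lower genes, TANC2 was lower by 9.9% (adjusted p = 0.0428). Dynein and dynactin, which move cargo toward the minus end, held 7 higher and 0 lower of 23 tested (median 0.072). Their share called, 30.4%, is that of all genes (30.6%), with 15.2% of all genes higher and 15.5% lower. The smallest adjusted p were those of DYNLL2, BICD2 and DCTN4, which were higher by 27.4%, 25.1% and 11.8%. The tubulin list covered the alpha and beta tubulins of the track and also gamma, delta and epsilon tubulins. It held 1 higher and 7 lower of 13 tested (median −0.17), or 53.8% lower against 15.5% of all genes. TUBG1 and TUBG2, both gamma tubulins and not part of the track, were among the 7. TUBA1B, TUBG1 and TUBB were lower by 18.3%, 24.1% and 11% (adjusted p from 3.1e-08 to 1.57e-05).

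Of the 34 kinesins tested, 19 had no overlap between the groups, a state seen for 42.3% of all genes tested. It was seen for 18 of the 19 called kinesins, which the call itself makes likely. In the fits that left out each library in turn, 11 of the 19 kept their call every time. These were KIF15, KIFC1, KIF18B, KIF22 and KIF20A of the mitotic class and KIF5C, KIF3A, KIF5B, KIF3B, KIF1C and KIF1B of the transport class. With limma on log2(FPKM + 1) in place of the counts, 4 of the 19 stayed called, KIF15, KIF5B, KIF1B and KIF1C.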

How the data were processed

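The authors aligned adaptor- and quality-trimmed reads of the strand-specific poly(A) libraries to GRCh38 with HISAT2 (from the submitters' processing notes and the study's methods) and kept uniquely mapped reads. They deposited the raw count of reads per gene and, in a separate file, FPKM per gene. The counting tool, its strand setting and the annotation release are not given in the sources used here.

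The groups, 3 si_GRB2 and 3 si_NC libraries, were compared with the two-sided quasi-likelihood test of edgeR 4.0.16 in R 4.3.3, using TMM scaling and no covariate. Low counts were removed with filterByExpr, which left 15801 genes, and p-values were adjusted over these by Benjamini-Hochberg. CPM are TMM-scaled. The common biological coefficient of variation was 3.75%. Within groups, the chi-square of counts per degree of freedom was 2.06 to 4.55, where 1 is sampling noise. Such a spread can be technical and does not show separate cultures. Each library entered the test as 1 replicate. Gene positions and exon overlaps came from GENCODE 44, in which all 39 identifiers were found, and promoter windows from RefSeq (GRCh38.p14). The test was checked on simulated counts, with 49 changed genes of each size among 15613 in the fit. It recovered 69.4% at 1.25-fold, 63.3% at 1.5-fold, 81.6% at 2-fold and 100% at 4-fold. Of 163 genes called there, 5.52% were unchanged. A far smaller share of genes was changed in the simulation than was called in these data.

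The members, classes, lists and motifs were chosen with earlier results of these data known. Named were GRB2, each kinesin with an adjusted p under 0.05, the 3 kinesins of highest mean FPKM in each class, each kinesin that failed the filter, the 3 genes of smallest adjusted p in each partner list, and CENPE, KIFAP3, KIFBP and KLC1 to KLC4. The values of 1 gene that this rule names are not reported here. KIF13A, KIF13B, KIF14, KIF16B, KIF18A, KIF3C, KIF5A, KIF6, KIF12, KIF21B, KIF27, TRAK1 and TRAK2 were named after their values were seen, to complete their classes or complexes. TANC2 was also named after its values were seen, as a lower gene of its list. Results were recomputed with DESeq2 1.42.0, with its size factors inside edgeR, with scaling by library size, with no filter or at least 10 counts in every library, with a block on replicate number, with limma 3.58.1 on log2(FPKM + 1) or log2(FPKM + 0.1), with an unadjusted p for the limits of the study, with KIF2A counted as mitotic, and after omitting each library singly.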

Additional observations from a re-analysis of the deposited data

How the results depend on the processing

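GRB2 stayed lower in each alternative, with log2 fold changes from −2.17 to −1.91. Of 176 refits of the 22 named kinesins with all 6 libraries, 130 kept direction and call, 39 lost the call, 1 gained it and 6 turned direction. Of 132 with a library left out, these were 102, 26, 1 and 3. DESeq2, which gave an adjusted p for 13864 genes and 31 kinesins, called 4 kinesins higher in place of 7, and 11 lower. Limma on FPKM tested 29912 genes and 38 kinesins, against 15801 and 34 in the edgeR test used above. The share of all genes called in each alternative is not given here, so lost calls are not particular to kinesins on these counts. With limma on FPKM, both pseudocounts gave 2 kinesins higher (2 of them transport), 2 lower (1 mitotic, 1 transport) and 0 past the limits of the study, and the mitotic median was −0.119 with 0.1 and −0.108 with 1. The cause was not tested. With library size alone 1 kinesin passed the limits of the study, and the medians were −0.12 (mitotic) and 0.10 (transport), while the median of all genes moved to 0.052. With no filter the transport median was −0.0027. Leaving out 1 library gave 3 to 5 kinesins higher, 9 to 12 lower, 2 to 3 past the limits of the study, and a transport median of −0.021 to 0.065. The 3 came without si_NC replicate 2 and the 4 without si_GRB2 replicate 2, and the transport median was below 0 without either of these.

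KIF21A and KIF24, which were not called, turned above 0 with library size alone (0.021 and 0.029), with FPKM + 0.1 (0.012 and 0.018) and with FPKM + 1 (0.0094 and 0.0097), and ran from −0.079 to 0.0031 and from −0.061 to 0.0031 with a library left out.

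Pairing of the samples by replicate number was not evident. Same-numbered libraries had deviations correlated at r = 0.232, −0.095 and 0.08 over 15801 genes, and not every library correlated best with its own number. With 3 libraries per group these values cannot exclude a paired preparation. A replicate block gave 6 kinesins higher and 12 lower. Genes with few reads are measured less precisely, with standard errors up to 0.39 on the log2 scale among the kinesins tested.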
